A study of Danio rerio with 15 samples.

Results

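The paired-box genes pax2a, pax2b and pax8 were followed through FAC-sorted cells of the zebrafish trunk. All probe sets that the array's annotation gives the symbol pax2a, pax2b or pax8 were taken, which gave 3 of 8793 named genes and 5 of the 15502 probe sets tested. pax2a was measured by Dr.10.1.S1_at, its first probe set here, and by Dr.10.4.S1_a_at, its second. pax2b was measured by Dr.8175.1.S1_at, its first, and by Dr.5495.1.S1_at, its second, and pax8 by Dr.8177.1.S1_at alone. All 5 matched a RefSeq gene by gene ID, which the same annotation supplies. By accession 2 matched a RefSeq transcript, the first probe sets of pax2a and pax2b. The second probe sets and that of pax8 are annotated with GenBank records outside RefSeq. This look-up could not match them, so it says nothing about what they measure. RNA of 15 sorted samples was measured on the Affymetrix Zebrafish Genome Array, at 27 hours post fertilization (hpf), in 3 groups. V1 interneurons, called CiA cells in zebrafish, were GFP-sorted from Tg(pax2a:GFP) embryos on 6 arrays. All spinal neurons were EGFP-sorted from Tg(elavl3:EGFP) embryos, whose reporter is driven by a pan-neuronal gene, on 5 arrays. Trunk cells, which are the cells of the same dissected region with no transgenic line named for them, were sorted on 4 arrays. The embryos of every group had been moved from 28.5 °C to 32 °C at 10 hpf. Per the labels' protocols, the pronephros was cut away from the V1 dissections before sorting. The labels call the samples of a group biological replicates and do not say whether embryos were pooled.

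Pax2, Pax5 and Pax8 proteins form 1 branch of the Pax family. They bind DNA through the paired domain, carry an octapeptide through which Groucho corepressors bind, and keep only part of a homeodomain. In the vertebrate spinal cord Pax2 is a marker of several inhibitory interneuron classes, V1 cells among them, and in zebrafish the Pax2 and Pax8 genes act redundantly in giving spinal interneurons an inhibitory transmitter identity. The same genes are needed in the pronephros, the embryonic kidney, and zebrafish pax2a also acts at the midbrain-hindbrain boundary and in the ear. pax2a and pax2b are the 2 zebrafish copies of Pax2.

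All values below are log2 RMA signals, so a difference of 1 is a doubling. Levels of single probe sets were not ranked against each other, though lists of genes were summed and some levels were set beside the median of all values. No call of presence or absence was available. The number of arrays limits the precision. pax2a drives the reporter of the V1 sort: its level in V1 cells checks the sort and is no finding. In these sorted populations, fewer cells that express a gene and less RNA of it per cell cannot be told apart.

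Some arrays stood apart from others of their group. A control probe set of the array lay between 4.98 and 5.59 in V1 cells and between 10.16 and 10.76 in all neurons. It read 8.02 and 8.16 in trunk arrays 1 and 2 but 5.63 and 5.71 in trunk arrays 3 and 4. A probe set of elavl3, the gene of the all-neuron reporter, was split alike. There V1 arrays read 6.07 to 6.49, all-neuron arrays 9.03 to 9.56, and trunk arrays 7.51, 7.11, 4.62 and 5.20. At the other elavl3 probe sets V1 cells and all neurons overlapped, and trunk arrays 1 and 2 did not lie above trunk arrays 3 and 4. The cause of the split was not tested. The mean of 14 muscle genes was 9.57, 9.82 and 9.56 in all-neuron arrays 1 to 3, against 7.88 and 8.12 in all-neuron arrays 4 and 5. Results for the 5 probe sets that changed without either set of arrays are given beside them. Of 11 measured pan-neuronal genes, 4 were lower in V1 cells than in all neurons and none higher (median −0.22, beside −0.01 for all probe sets, of which 9.3% were lower and 12.7% higher). When arrays were scaled to equal ribosomal protein signal, 9 were lower, as were 11630 of all 15502 probe sets. Against trunk cells, 10 of the 11 pan-neuronal genes were higher in V1 cells and all 11 in all neurons, beside 22% and 20.8% of all probe sets.

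pax2a, the gene of the V1 reporter, was highest in V1 cells, intermediate in all neurons and lowest in trunk cells at its first probe set, Dr.10.1.S1_at. In V1 cells the 6 arrays read 8.10, 7.33, 7.85, 8.35, 8.31 and 8.77. The 5 all-neuron arrays read 6.98, 6.61, 6.60, 6.97 and 6.95, and the 4 trunk arrays read 5.31, 4.97, 5.48 and 5.43. No array of one group reached the range of another, and V1 array 2 was the lowest of its group.

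The pax2a level at this probe set was 2.46-fold higher in V1 cells than in all neurons (8.12 ± 0.49, n = 6, and 6.82 ± 0.20, n = 5, SD; log2 difference 1.30, SE 0.20, limma adjusted p = 1.96e-04). Against trunk cells the V1 level was 7.06-fold higher (log2 difference 2.82, SE 0.21, adjusted p = 7.62e-08). All neurons exceeded trunk cells (5.30 ± 0.23, n = 4) by 2.87-fold (log2 difference 1.52, SE 0.22, adjusted p = 3.46e-05). This last comparison does not involve the pax2a reporter. All 3 differences passed the threshold under every alternative run and with any 1 array left out.

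The second pax2a probe set, Dr.10.4.S1_a_at, separated none of the groups. Affymetrix gives the suffix "_a_at" to sets that match alternative transcripts of 1 gene. V1 arrays read 5.42, 5.25, 5.46, 5.71, 5.25 and 5.24, all-neuron arrays 5.08, 4.92, 5.04, 5.18 and 5.25, and trunk arrays 5.28, 5.35, 4.95 and 5.29. The 3 ranges overlapped. The V1 mean was 0.29 above that of all neurons (SE 0.10, 95% interval 0.08 to 0.51, adjusted p = 0.0523), a difference that did pass when V1 array 6 was left out (0.32, adjusted p = 0.0481). V1 cells differed from trunk cells by 0.17 (95% interval −0.06 to 0.40, adjusted p = 0.236), and all neurons from trunk cells by −0.12 (95% interval −0.37 to 0.12, adjusted p = 0.423). The 2 pax2a probe sets did not move alike: on the same arrays the first changed by 1.00 more than the second between V1 cells and all neurons, by 2.65 more between V1 and trunk cells and by 1.65 more between all neurons and trunk cells (exact two-sided permutation tests of the per-array difference, adjusted p = 0.0336 for each over 30 tests).

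**Figure D1:**
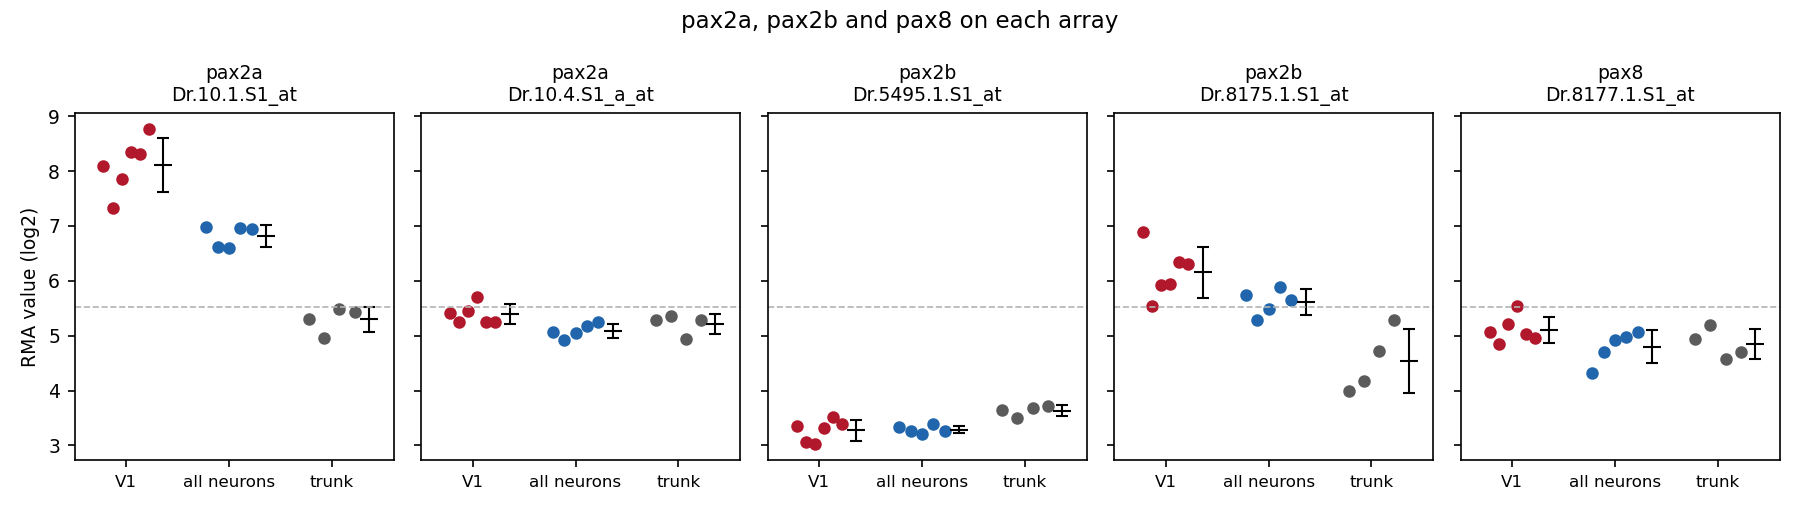
RMA values (log2, y axis) of the 5 probe sets of pax2a, pax2b and pax8 on each array, by group on the x axis. Each point is 1 array, in the order of the replicate numbers, the bars are mean ± SD, and the dashed line is the median of all values, 5.52. At the first pax2a probe set, on the left, the V1 arrays lie between 7.33 and 8.77, above all other arrays, while the 3 groups overlap at pax8.

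pax2b, the other Pax2 copy, was higher in both neuronal populations than in trunk cells at its first probe set, Dr.8175.1.S1_at. V1 arrays read 6.89, 5.53, 5.93, 5.94, 6.35 and 6.31. All-neuron arrays read 5.75, 5.28, 5.48, 5.89 and 5.65, and trunk arrays read 3.99, 4.18, 4.72 and 5.29. Every V1 array lay above every trunk array, all-neuron arrays other than array 2 did so too, and V1 cells and all neurons overlapped.

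At this probe set V1 cells (6.16 ± 0.47, n = 6) were 3.06-fold above trunk cells (4.54 ± 0.59, n = 4; SD), a log2 difference of 1.61 with SE 0.26 and limma adjusted p = 1.14e-04. All neurons (5.61 ± 0.24, n = 5) were 2.10-fold above trunk cells (log2 difference 1.07, SE 0.27, adjusted p = 0.00411). That second difference fell to 0.61 and lost its call when trunk arrays 1 and 2 were left out (adjusted p = 0.127). V1 cells exceeded all neurons by 0.55 (SE 0.24, 95% interval 0.04 to 1.06), which did not pass after adjustment (adjusted p = 0.122).

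The second pax2b probe set, Dr.5495.1.S1_at, ran the other way against trunk cells. V1 arrays read 3.36, 3.06, 3.02, 3.31, 3.51 and 3.39, all-neuron arrays 3.33, 3.26, 3.21, 3.39 and 3.26, and trunk arrays 3.64, 3.50, 3.69 and 3.71. All of these values lie below 5.52, the median of all values, all-neuron arrays lay below every trunk array, and V1 array 5 reached the level of trunk array 2. V1 cells were 0.36 below trunk cells (SE 0.10, adjusted p = 0.00807), a call that was lost without trunk arrays 3 and 4 (−0.29, adjusted p = 0.0889). All neurons were 0.34 below trunk cells (SE 0.10, adjusted p = 0.0119), a call lost without trunk arrays 3 and 4 or all-neuron arrays 1 to 3, and the sign turned when the arrays were scaled to equal ribosomal protein signal (0.10, adjusted p = 0.604). V1 cells and all neurons differed by −0.01 (95% interval −0.21 to 0.18, adjusted p = 0.940). The changes of the 2 pax2b probe sets differed from each other by −0.56 between V1 cells and all neurons, −1.97 between V1 and trunk cells and −1.41 between all neurons and trunk cells (second less first, exact permutation tests, adjusted p = 0.0336 for each).

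pax8, the third gene, passed in no comparison. V1 arrays read 5.06, 4.85, 5.21, 5.54, 5.03 and 4.96. All-neuron arrays read 4.32, 4.70, 4.92, 4.98 and 5.06, and trunk arrays read 4.93, 5.20, 4.57 and 4.71. The 3 ranges overlapped, with the lowest value in all-neuron array 1 and the highest in V1 array 4.

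The pax8 means were 5.11 ± 0.24 in V1 cells (n = 6), 4.80 ± 0.30 in all neurons (n = 5) and 4.85 ± 0.27 in trunk cells (n = 4). V1 cells differed from all neurons by 0.31 (95% interval −0.02 to 0.64, limma adjusted p = 0.171). V1 cells differed from trunk cells by 0.26 (95% interval −0.09 to 0.60, adjusted p = 0.233), and all neurons from trunk cells by −0.06 (95% interval −0.42 to 0.31, adjusted p = 0.828). With 1 probe set, the pax8 values could not be set beside a second measure of the gene.

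Of the 5 probe sets, 1 was called between V1 cells and all neurons, the first of pax2a, higher in V1 cells. Of all probe sets 22% were called there, 12.7% higher and 9.3% lower. Between V1 and trunk cells 3 were called, 2 higher and 1 lower in V1 cells, where 40% of all probe sets were called, 22% higher and 18% lower. Between all neurons and trunk cells 3 were called, 2 higher and 1 lower in all neurons, where 41.4% of all probe sets were called, 20.8% higher and 20.6% lower. With 5 probe sets these counts do not set the genes apart from the array as a whole. The calls in V1 cells against all neurons were 1966 upward and 1442 downward, but 508 upward and 11630 downward when arrays were scaled to equal ribosomal protein signal. For all neurons against trunk cells they were 3219 upward and 3196 downward, and under that scaling 8034 upward and 1296 downward.

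**Figure D2:**
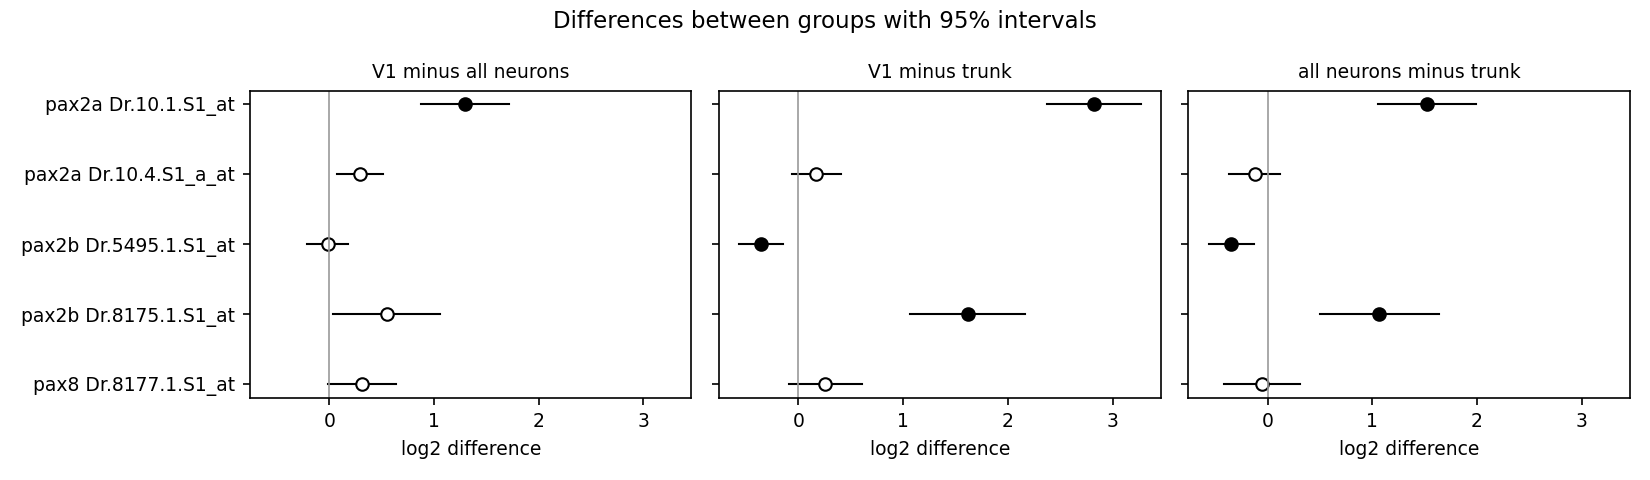
Log2 differences (x axis) of the 5 probe sets for V1 minus all neurons, V1 minus trunk and all neurons minus trunk, with 95% intervals as lines. Filled points passed the limma test at adjusted p under 0.05 over all probe sets. The first pax2a probe set, in the top row, is filled in all 3 panels (1.30, 2.82 and 1.52), and pax8 and the second pax2a probe set in none.

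Whether 2 probe sets changed by different amounts was tested on their per-array difference, for 10 pairs in 3 comparisons, and 19 of the 30 exact permutation tests passed after adjustment. The first pax2a probe set changed by more than pax8 in every comparison: by 0.99 between V1 cells and all neurons, by 2.56 between V1 and trunk cells and by 1.58 between all neurons and trunk cells (adjusted p = 0.0336 for each). Its excess over the second pax2a probe set was as large, at 1.00, 2.65 and 1.65. The group means of pax8 and of the second pax2a probe set all lay below 5.52, the median of all values. These tests compare probe sets, and cannot tell whether pax2a and pax8 were regulated differently. The first pax2a probe set also changed by more than the first pax2b probe set between V1 cells and all neurons, by 0.75, and between V1 and trunk cells, by 1.20 (adjusted p = 0.0336 for each). In both V1 comparisons these excesses of pax2a include the sort by its own reporter and, like its level, are no finding. Between all neurons and trunk cells, where neither sort used the pax2a reporter, the pax2a change exceeded the pax2b change by 0.46, which did not pass (adjusted p = 0.108). The first pax2b probe set changed by more than pax8 between V1 and trunk cells (by 1.36, adjusted p = 0.0336). The pax2b change exceeded that of pax8 by 1.12 between all neurons and trunk cells (adjusted p = 0.0714) and by 0.24 between V1 cells and all neurons (adjusted p = 0.478), and neither passed.

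These pair tests were near the smallest p that the group sizes allow, which is 0.00433 for 6 against 5 arrays, 0.00952 for 6 against 4 and 0.0159 for 5 against 4. With any 1 trunk array left out, no test against trunk cells passed after adjustment. Fewer trunk arrays raise the smallest p that can be reached, so this loss does not tell whether the differences held. Without each array in turn, the first pax2a probe set exceeded the second by 2.49 to 2.80 between V1 and trunk cells. Between all neurons and trunk cells the excess was 1.49 to 1.80. The difference between the first probe sets of pax2a and pax2b in V1 cells against all neurons was lost without V1 array 2, 3, 4 or 6 or without all-neuron array 3 or 4 (adjusted p 0.0501 to 0.0601). The same pair in V1 against trunk cells was lost without V1 array 2, 3, 4 or 6, and the first pax2b probe set against pax8 there without V1 array 1, 2, 3 or 6. The difference between the first pax2a probe set and pax8 in V1 cells against all neurons was lost without V1 array 6 (0.83, adjusted p = 0.0501).

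Across the 15 arrays, the first probe sets of pax2a and pax2b had the highest Pearson r of the 10 pairs, 0.891, with 0.547 for deviations from the group means. The highest r of the deviations, 0.782, was that of the first pax2a with the second pax2b probe set, whose values across groups had r = −0.535. pax8 went with the second pax2a probe set (r = 0.811, and 0.749 for the deviations), the pair of probe sets that separated no groups, and not with the first (r = 0.366, and −0.029 for the deviations). The 2 pax2a probe sets had r = 0.382, and the 2 pax2b probe sets r = −0.423, with 0.632 for their deviations. These correlations describe 15 arrays that share their groups and hybridisations, and were not tested.

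Among 5291 genes with a bright probe set, those whose values were most like the first pax2a probe set over the 15 arrays were vipas39, a vesicle-sorting gene (r = 0.986), en1b, the Engrailed factor that defines V1 interneurons (r = 0.979), spag1a (r = 0.969), cxxc5a (r = 0.966) and hoxc11a (r = 0.963). For deviations from the group means, r was 0.874, 0.729, 0.928, 0.612 and 0.736 in the same order. The r values over all arrays include the differences between the groups, and V1 cells were sorted by the pax2a reporter. Those most like the first pax2b probe set were ufd1l (r = 0.940), stap2a (r = 0.933), hdlbpb (r = 0.932), hoxd10a and paxbp1 (r = 0.926 for both). For pax8 they were ca5a, a mitochondrial carbonic anhydrase gene (r = 0.911), top1mt (r = 0.762), mbd2 (r = 0.699), mia2 (r = 0.698) and rsrp1 (r = 0.684). ca5a and top1mt stood also among the 5 genes most like the second pax2a probe set, with serpinb1l3, brdt and polr3d, at r between 0.761 and 0.824. For the second pax2b probe set, rps6kb1b, akap1b, mef2d, eif2b1 and ell had r between 0.837 and 0.852.

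en1b read 11.20, 10.83, 11.33, 11.49, 11.21 and 11.46 in V1 cells, 9.78, 9.37, 9.49, 9.79 and 9.76 in all neurons and 7.95, 8.17, 8.08 and 8.33 in trunk cells. As with pax2a, no ranges overlapped and V1 array 2 was the lowest of its group. The en1b level was 3.06-fold higher in V1 cells than in all neurons (log2 difference 1.61, SE 0.12, limma adjusted p = 2.78e-07).

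Of the 15 Pax genes listed, 10 were measured: the 3 described above and pax1b, pax3a, pax5, pax6a, pax6b, pax7a and pax9, with 11 probe sets among them. pax5, the remaining gene of the Pax2/5/8 branch, was called in no comparison of the deposited values at either of its 2 probe sets. At the one with the higher mean it averaged 4.91 in V1 cells, 4.88 in all neurons and 5.03 in trunk cells. pax1b, pax3a and pax7a, the last at 4 probe sets, were also called in none. Scaled to equal ribosomal protein signal, which put the median difference of all probe sets between V1 cells and all neurons at −0.56, both pax5 sets, 3 pax7a sets, pax1b and pax3a passed there as lower in V1 cells, with differences between −0.56 and −0.49. The remaining pax7a set, Dr.23456.1.S1_at, passed as higher in V1 than in trunk cells with cyclic loess (0.77, adjusted p = 0.0394) and with equal array medians (0.69, adjusted p = 0.0499), against 0.68 (adjusted p = 0.0518) with the deposited values.

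The 2 Pax6 copies, which act in neural progenitors and in some neurons, were lower in V1 cells than in both other groups, though 2 of these 4 calls rested on single arrays. pax6a read 5.93, 7.40, 7.21, 5.82, 5.86 and 6.16 in V1 cells, 8.17, 8.13, 8.16, 7.35 and 7.47 in all neurons and 7.45, 7.77, 6.93 and 6.91 in trunk cells. V1 arrays 2 and 3 lay within the range of trunk cells and the other four below it. The V1 level of pax6a fell by 1.46 on the log2 scale against all neurons (SE 0.30, adjusted p = 0.00253) and by 0.87 against trunk cells (SE 0.32, adjusted p = 0.0425). That of pax6b fell by 0.82 against all neurons (SE 0.23, adjusted p = 0.0191) and by 0.97 against trunk cells (SE 0.25, adjusted p = 0.00547). Like the muscle genes, pax6a was higher in all-neuron arrays 1 to 3 than in all-neuron arrays 4 and 5. So was pax6b, at 6.81, 6.78 and 7.21 against 6.28 and 6.17. Pax6 differences without either set of arrays are not given here. The pax6a call against trunk cells was lost without V1 array 1, 4, 5 or 6 or without trunk array 1 or 2 (adjusted p between 0.0754 and 0.148), and the pax6b call against all neurons without all-neuron array 3 (adjusted p = 0.0570). All neurons and trunk cells differed by 0.59 at pax6a (adjusted p = 0.181) and by −0.15 at pax6b (adjusted p = 0.684).

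pax9, a gene of the sclerotome and pharynx, was lower in both neuronal populations than in trunk cells. It averaged 5.66 ± 0.67 in V1 cells (n = 6), 4.95 ± 0.13 in all neurons (n = 5) and 6.79 ± 0.62 in trunk cells (n = 4; SD). It fell by 1.85 in all neurons against trunk cells (adjusted p = 2.24e-04) and by 1.13 in V1 cells against trunk cells (adjusted p = 0.00855). Over the 10 Pax genes, 1 was higher and 2 lower in V1 cells than in all neurons, beside 12.7% and 9.3% of all probe sets. In V1 against trunk cells 2 were higher and 3 lower, beside 22% and 18% of all probe sets. In all neurons against trunk cells 2 were higher and 1 lower, beside 20.8% and 20.6% of all probe sets. The median differences of the 10 genes were 0.03, −0.02 and −0.01, beside −0.01, −0.02 and −0.03 for all probe sets. Scaled to equal ribosomal protein signal, 1 was higher and 6 lower in V1 cells than in all neurons (508 and 11630 of all 15502 probe sets). Under that scaling 5 were higher and 1 lower in all neurons than in trunk cells (8034 and 1296 of all probe sets). Without V1 array 4, 2 were higher in V1 cells than in all neurons, pax9 being added (adjusted p = 0.0454), and without all-neuron array 3 only 1 was lower.

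**Figure D3:**
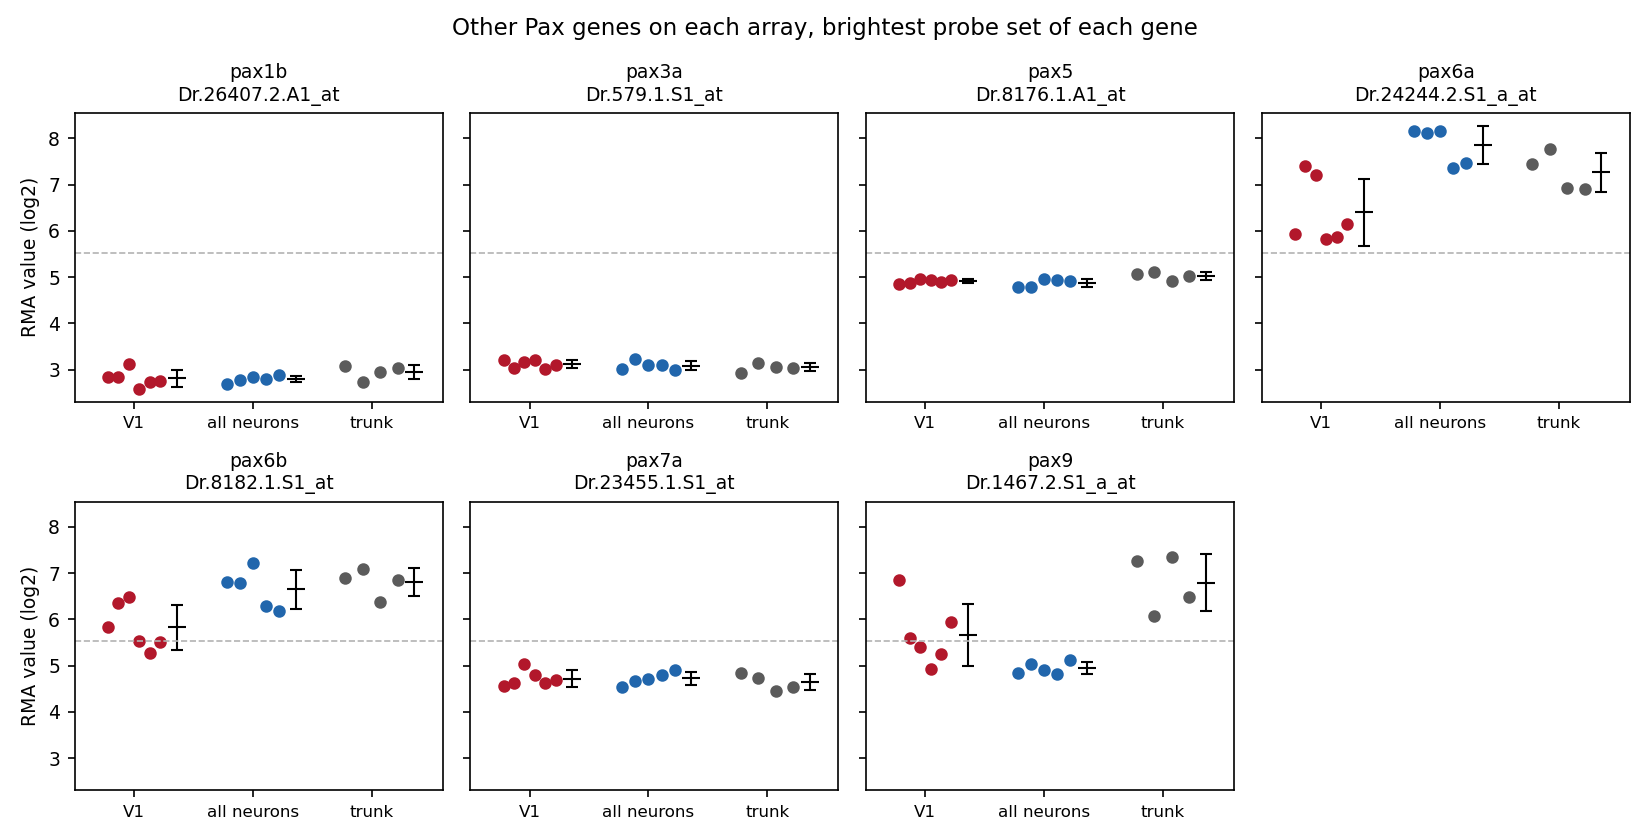
RMA values (log2, y axis) of the 7 other measured Pax genes on each array by group, each at its probe set with the highest mean. Points are arrays, bars are mean ± SD and the dashed line is the median of all values, 5.52. pax6a and pax6b are lower in V1 cells than in the other groups, and pax9 is higher in trunk cells than in all neurons.

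Factors of the interneuron classes in which Pax2 is found were measured for 19 of 30 listed genes. In V1 cells against all neurons 7 were higher and 4 lower, beside 12.7% and 9.3% of all probe sets. The higher ones were otpb (log2 difference 1.83), en1b (1.61), gbx2 (1.60), tfap2a (1.29), foxd3 (1.28), and the LIM homeobox genes lhx5 (0.81) and lhx1a (0.41), of which lhx1a turned to −0.14 when scaled to equal ribosomal protein signal. Of the higher ones, tfap2a and foxd3 are also crest genes, and all 8 measured pigment and crest genes were higher in V1 cells too. The part of crest RNA in their differences was not tested. The lower ones were dmrt3a (−1.20), a marker of dI6 interneurons, sp8b (−0.99), gbx1 (−0.90) and foxp2 (−0.43). The median of the 19 differences was −0.04, beside −0.01 for all probe sets. Scaled to equal ribosomal protein signal, 5 of the 19 were higher and 11 lower (508 and 11630 of all 15502 probe sets). Under that scaling lhx5 and lhx1a lost their calls, and lhx1a lost its call also without all-neuron array 1 or 2.

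In all neurons against trunk cells 8 of the 19 were higher and 1 lower, beside 20.8% and 20.6% of all probe sets. The largest were lhx5 (2.27) and dmrt3a (2.08), and the lower one was en1a (−0.53). Scaled to equal ribosomal protein signal 13 were higher and none lower (8034 and 1296 of all 15502 probe sets). In V1 against trunk cells 11 were higher and 5 lower, where 22% of all probe sets were higher and 18% lower. The median was 0.87, beside −0.02 for all probe sets. The ptf1a call (−0.30, adjusted p = 0.0384) was lost with cyclic loess, when scaled to equal ribosomal protein signal and without most single arrays. That of lhx1b (0.48) was lost under the ribosomal scaling and without trunk array 1 or 2, and that of sp8b (−0.87) without trunk array 2. en1a, the second Engrailed1 copy, differed by −0.04 between V1 cells and all neurons and was not called. It read 2.76 to 3.06 in V1 cells and 2.74 to 3.15 in all neurons. Both ranges lay below that of trunk cells, 3.33 to 3.77, and all of these values lay below 5.52, the median of all values.

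Of the genes of inhibitory transmission, 4 of 9 were measured. The GABA-synthesis genes gad2 and gad1b were lower in V1 cells than in all neurons, by 1.63 (adjusted p = 7.67e-06) and 1.30 (adjusted p = 0.00171) on the log2 scale. slc32a1, which loads GABA and glycine into vesicles, differed by 0.41 (adjusted p = 0.0207), a call lost with cyclic loess (adjusted p = 0.143), without all-neuron array 2 (adjusted p = 0.0522) and when scaled to equal ribosomal protein signal, which turned it to −0.14. gad1b, gad2 and slc32a1 were higher in V1 than in trunk cells and in all neurons than in trunk cells. abat, a GABA-breakdown gene, was called higher in all neurons than in trunk cells (1.06, adjusted p = 0.0349), a call lost with cyclic loess and without several single arrays.

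Factors of other spinal neuron classes, in most of which Pax2 is not found, were measured for 21 of 39 listed genes. In V1 cells 14 of them were lower than in all neurons and none were higher, beside 9.3% and 12.7% of all probe sets. The median was −1.09, beside −0.01 for all probe sets. The lowest were sox1a (−3.56), gata3 (−3.22), which marks V2b and Kolmer-Agduhr cells, runx3 (−3.02), a sensory neuron factor, and prdm14 (−2.10), a motor axon factor. In all neurons against trunk cells 14 were higher, prdm14 (2.63) and sox1a (2.55) the most, and none were lower, beside 20.8% and 20.6% of all probe sets. In V1 against trunk cells the motor and sensory neuron genes isl1a (1.86) and isl2a (1.37) were higher, and vsx1, nkx2.2a, gata3, sox1a and runx3 were lower. The vsx1 and nkx2.2a calls were lost with cyclic loess (adjusted p = 0.0788 and 0.143) and when several single arrays of either group were left out.

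Pax proteins act with Six-family, Eya and Dach factors, and through Groucho corepressors, of which 18 of 33 listed genes were measured with the Pax-binding proteins. Between V1 cells and all neurons dacha (−0.63) and dachd (−0.70) were lower and 1 gene was called higher, the Groucho gene tle2a (0.39, adjusted p = 0.0496). Of all probe sets 9.3% were lower and 12.7% higher there, so these counts do not set the 18 genes apart. The tle2a call was lost with cyclic loess, with equal array medians and without any 1 of 8 single arrays (adjusted p between 0.0770 and 0.135). Scaled to equal ribosomal protein signal, tle2a differed by −0.17, and 13 of the 18 genes were lower and none higher (11630 and 508 of all 15502 probe sets). In V1 against trunk cells 5 of the 18 were higher and 5 lower, near the 22% and 18% of all probe sets. The higher ones were dachb (1.30), tle3b (1.09), paxbp1 (1.01), tle2a (0.97) and dachd (0.62), and the lower ones six4a (−1.99), eya1 (−1.92), six4b (−1.74), six2a (−1.01) and six3b (−0.30), whose call was lost with cyclic loess, when scaled to equal ribosomal protein signal and without V1 array 4 or trunk array 2 or 4. In all neurons against trunk cells 6 were higher and 4 lower, beside 20.8% and 20.6% of all probe sets. The lower ones were eya1 (−2.37), six4a (−1.90), six4b (−1.65) and six2a (−0.93). eya1 and the Six4 copies also act in muscle, whose 14 measured genes were all lower in both neuronal populations than in trunk cells; the part of muscle RNA in these differences was not tested. The muscle genes summed to 4208 to 9619 linear signal units in V1 cells, 6703 to 27789 in all neurons and 56858 to 73263 in trunk cells.

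Genes of the pronephros, where pax2a and pax8 are also expressed, were measured for 25 of 49 listed genes. In V1 cells against all neurons 11 were higher and 3 lower, beside 12.7% and 9.3% of all probe sets. The median was 0.08, beside −0.01 for all probe sets. In V1 against trunk cells 10 were higher and 2 lower, beside 22% and 18% of all probe sets. In all neurons against trunk cells 7 of the 25 were higher and 6 lower, near the 20.8% and 20.6% of all probe sets. Scaled to equal ribosomal protein signal, 7 were higher and 12 lower in V1 cells than in all neurons (508 and 11630 of all 15502 probe sets). Under that scaling 12 were higher and 3 lower in all neurons than in trunk cells (8034 and 1296 of all probe sets). The largest differences of V1 cells from all neurons were those of transport genes: slc4a2a (4.41), the sodium pump subunit atp1a1a.4 (4.37) and aqp3a (3.32). The lower ones were gata3 (−3.22), irx1b (−0.62) and rfx2 (−0.61). The 25 genes summed to 3931 to 5489 linear signal units in V1 cells, 2350 to 2851 in all neurons and 1760 to 1971 in trunk cells. Their mean log2 value was 5.80 to 6.17 in V1 cells, 5.19 to 5.52 in all neurons and 5.35 to 5.44 in trunk cells. V1 cells were highest by both measures. All neurons lay above trunk cells by the sum but not by the mean log2 value (medians 5.23 and 5.37). RMA values have no 0, so no marker could be called absent.

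The pronephros marker cdh17 read 6.37, 8.07, 7.53, 8.24, 7.31 and 6.89 in V1 cells, 6.20, 4.26, 4.08, 4.24 and 4.18 in all neurons and 5.44, 5.68, 6.48 and 5.12 in trunk cells. atp1a1a.4 read 8.84, 10.50, 9.23, 9.85, 8.99 and 8.97 in V1 cells, 8.75, 4.02, 3.98, 4.16 and 4.24 in all neurons and 7.20, 7.60, 8.12 and 7.09 in trunk cells. V1 arrays 2 and 4 had the highest V1 values of both genes. At the first pax2a probe set V1 array 2 was the lowest of its group, at 7.33, and V1 array 4 read 8.35. In the same order they read 5.53 and 5.94 at the first pax2b probe set and 4.85 and 5.54 at pax8. At the second pax2a probe set they read 5.25 and 5.71. V1 array 4 was the highest V1 array at pax8 and at the second pax2a probe set. The part of pronephros RNA in the values of pax2a, pax2b and pax8 was not tested. All-neuron array 1, at 8.75 for atp1a1a.4, read 6.98 for pax2a, where the other all-neuron arrays read 6.60 to 6.97, and it had the lowest pax8 value, 4.32. Without any 1 array the pax2a difference between V1 cells and all neurons stayed between 1.17 and 1.46. Leaving out 1 array cannot test for pronephros RNA shared by all V1 arrays.

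**Figure D4:**
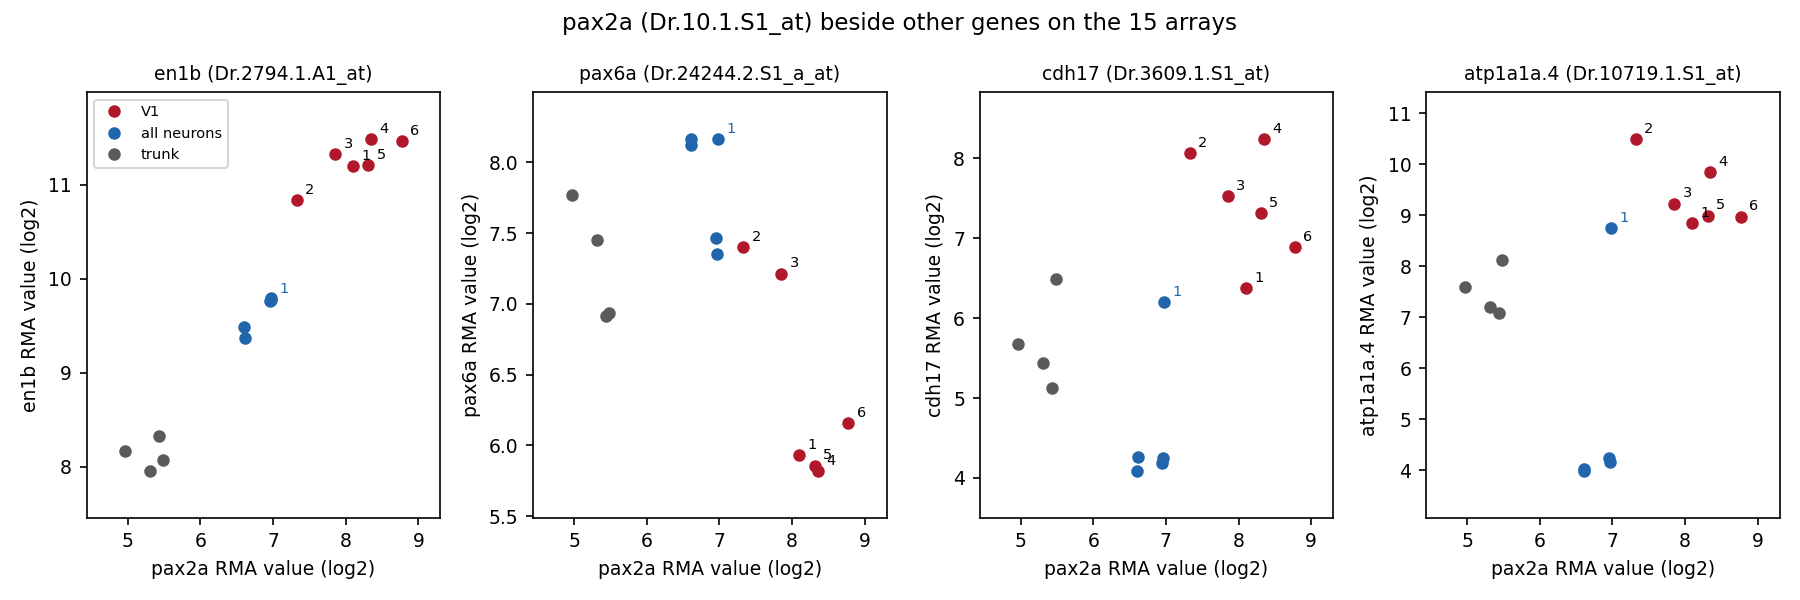
RMA values (log2) of en1b, pax6a, cdh17 and atp1a1a.4 (y axes) against the first pax2a probe set (x axes) on the 15 arrays, coloured by group. Numbers give the replicate of V1 arrays and mark all-neuron array 1. V1 array 2 has the lowest pax2a and en1b values of the V1 arrays. V1 arrays 2 and 4 have the highest V1 values of cdh17, 8.07 and 8.24, and of atp1a1a.4, 10.50 and 9.85.

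Markers of other cells also differed between the groups. Of the red cell genes 9 of 9, of the vessel genes 6 of 6 and of the pigment and crest genes 8 of 8 were higher in V1 cells than in all neurons, beside 12.7% of all probe sets. Scaled to equal ribosomal protein signal, tie1 (0.43 with the deposited values), tek (0.97) and kita (0.24) lost their calls. The kita call was lost also with equal array medians and without most single arrays. Red cell genes summed to 7194 to 16897 linear signal units in V1 cells, 283 to 368 in all neurons and 7261 to 11517 in trunk cells. Vessel genes summed to 968 to 2870 in V1 cells, 99.6 to 134 in all neurons and 823 to 1633 in trunk cells, and pigment and crest genes to 3034 to 6888 in V1 cells, 623 to 923 in all neurons and 1614 to 2804 in trunk cells. tfap2a and foxd3, named above, are also crest genes. Skin genes were higher in V1 cells than in all neurons for 4 of 13 and lower for none, while muscle genes were lower for 10 of 14 and notochord genes lower for 7 of 11 and higher for 1. Of all probe sets 12.7% were higher and 9.3% lower there. The muscle calls of ckmb (−1.04) and desma (−1.07) were lost without most single arrays. The part of these cells in the differences of pax2a, pax2b and pax8 was not tested.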

How the data were processed

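The values are log2 RMA signals that the authors deposited; per the submitters' processing notes they were computed in Affymetrix Expression Console, and the sources used here give neither program versions nor the chip definition or genome build. RNA had been amplified in 2 rounds, per the labels' protocols. After 115 controls were set aside from 15617 probe sets, 15502 were tested, of which 10795 had 1 gene symbol, 135 several and 4572 none. Symbols were updated by gene ID (1 changed, 84 unmatched).

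limma 3.58.1 (R 4.3.3; lmFit and eBayes) estimated the 3 group means from the 15 arrays together, and p-values were Benjamini-Hochberg adjusted, per comparison, across every tested probe set (threshold 0.05). Pairs of probe sets were compared by exact two-sided permutation tests in SciPy 1.17.1 (Python 3.11.15), adjusted over 30 tests. Figures used matplotlib 3.10.9. Each listed gene was represented by its probe set of highest mean. Named genes were all probe sets of the 3 genes, the 5 genes most like each, the measured Pax genes, up to 4 list members with the largest called difference between V1 cells and all neurons and up to 2 between all neurons and trunk cells, the cell type markers (among them lhx5, lhx1a and foxd3 for V1 cells), and any count of 5 or fewer. The members and lists were chosen with earlier results of these data known. The fits were tested on simulated data. Alternatives changed the variance prior, the groups fitted, the scaling (cyclic loess, equal medians, equal ribosomal protein means), the filter on dim probe sets, array weights, a replicate block and single arrays; sets of arrays that stood apart were left out as a choice made after seeing the data.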

Additional observations from a re-analysis of the deposited data

How the results depend on the processing

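The first pax2a probe set kept its direction and its call in all 3 comparisons under every alternative run. Its difference without each array in turn lay between 1.17 and 1.46 for V1 cells minus all neurons, 2.69 and 2.98 for V1 minus trunk cells and 1.41 and 1.58 for all neurons minus trunk cells. pax8 was called under none; without each array its differences lay between 0.19 and 0.38, 0.16 and 0.37, and −0.15 and 0.06 in the same order of comparisons. The ranges were 0.23 to 0.33, 0.08 to 0.22 and −0.21 to −0.08 for the second pax2a probe set, −0.06 to 0.04, −0.41 to −0.31 and −0.39 to −0.32 for the second pax2b probe set, and 0.40 to 0.67, 1.43 to 1.86 and 0.88 to 1.32 for the first pax2b probe set. Probe sets called ranged from 2713 to 3484, 5070 to 6214 and 5859 to 6163, and list genes called from 87 to 96, 85 to 98 and 102 to 114.

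For V1 cells minus all neurons, the second pax2a probe set passed with cyclic loess (0.31, adjusted p = 0.0256), array weights (0.33, adjusted p = 0.0204) and without V1 array 6 (0.32), and the first pax2b probe set with array weights (0.65, adjusted p = 0.0238). Scaling to equal ribosomal protein signal put the median difference of all probe sets at −0.56, −0.13 and 0.42 in the 3 comparisons; under it 12138 probe sets were called between V1 cells and all neurons, the second pax2b probe set passed there at −0.57 (adjusted p = 0.00376), and its difference between all neurons and trunk cells turned to 0.10 (adjusted p = 0.604). Without all-neuron arrays 4 and 5, 2184 probe sets were called between V1 cells and all neurons. For all neurons minus trunk cells, the first pax2b probe set fell to 0.61 without trunk arrays 1 and 2 (adjusted p = 0.127), and the second pax2b probe set lost its call without trunk arrays 3 and 4 (−0.28, adjusted p = 0.114) and without all-neuron arrays 1 to 3 (−0.31, adjusted p = 0.121); its V1 minus trunk difference lost it without trunk arrays 3 and 4 (−0.29, adjusted p = 0.0889). The causes were not tested. The filter on dim probe sets removed the second pax2a probe set, the second pax2b probe set and pax8, which have no value under it.

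Replicate numbers gave no clear pairing of the arrays: deviations of same-numbered arrays correlated at −0.13 to 0.36, over 0.1 in 4 of 13 pairs, and 8 of 26 checks found an array closest to its own number. Still, the highest r of all pairs across groups were of same-numbered arrays. These were 0.36 for array 2 of all neurons and V1 cells and 0.30 for array 1 of all neurons and trunk cells. No chance level was computed, so pairing of some arrays remains possible. With the replicate block as a fixed term the first pax2a probe set differed by 1.17 between V1 cells and all neurons, 3014 probe sets were called there, and no call of the 5 probe sets changed.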

Other observations

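1 of the 4 pax7a probe sets, Dr.23456.1.S1_at, split the V1 arrays. It read 4.50, 4.42, 4.17, 4.41, 5.82 and 5.51 in V1 cells, 4.30, 4.32, 4.31, 3.95 and 4.21 in all neurons and 4.03, 4.05, 4.26 and 4.18 in trunk cells, so V1 arrays 5 and 6 lay above every other array. With the deposited values no comparison of it was called (limma adjusted p = 0.105 between V1 cells and all neurons and 0.0518 between V1 and trunk cells), but V1 cells passed as higher than trunk cells with cyclic loess (0.77, adjusted p = 0.0394), with equal array medians (0.69, adjusted p = 0.0499) and without V1 array 1, 2, 3 or 4, and as higher than all neurons without V1 array 3 (adjusted p = 0.0443). pax9 was also uneven among V1 arrays, at 6.85 in array 1 and 4.93 to 5.94 in the others. These probe sets were singled out after their values were seen.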
